A study of Mus musculus with 6 samples.

Results

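The genes described here encode 8 chemokine receptors that steer lymphocytes into inflamed or barrier tissue, Cxcr3, Cxcr4, Cxcr6, Ccr2, Ccr4, Ccr6, Ccr9 and Ccr10, together with Gpr15, a related chemoattractant receptor. They were found by their gene symbols and make up 9 of the 24421 genes in the count table. The RNA came from regulatory T cells (Tregs), the Foxp3-expressing CD4 T cells that restrain immune responses, of mouse spleen and lymph nodes. The 3 Srebp2WT libraries (replicates 1, 3 and 5) had the genotype Srebp2WT/WT-Foxp3YFPCRE+/+. The 3 Srebp2cKO libraries (replicates 6, 7 and 8) had the genotype Srebp2FL/FL-Foxp3YFPCRE+/-. Both groups therefore carried a Cre recombinase with yellow fluorescent protein at the Foxp3 gene, which limits deletion of the floxed gene to cells that express Foxp3. The number of Cre alleles differed with the genotype. The effect of Cre dose, or of anything else that goes with these genotypes, therefore cannot be told apart from the effect of the deletion. SREBP2, encoded by Srebf2, is the transcription factor that switches on cholesterol synthesis and uptake genes. Whether the libraries of 1 genotype are from separate animals is not said in the labels, and the p-values then measure a spread between samples that may be technical.

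Chemokine receptors are G protein-coupled receptors of the cell surface. They signal through inhibitory G proteins when they bind small secreted chemokines, and this activates integrins and directs migration along the chemokine gradient. Tregs in lymphoid organs that have been activated exchange the lymph node receptor CCR7 for receptors of peripheral tissue. CXCR3 leads to sites of type 1 inflammation and is switched on by the T-box factor T-bet, while GPR15 leads T cells, Tregs among them, to the large intestine.

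The libraries held 13918321 to 17249898 counts assigned to genes, and 14158 to 14689 genes had at least 1 count. The level of Srebf2 checked the labels: it was 185 ± 10.9 CPM (counts scaled to the library total) in Srebp2WT and 12.4 ± 1.56 CPM in Srebp2cKO (mean ± SD, n = 3), a log2 fold change of -3.91 (adjusted p = 1.5e-08). Foxp3 was at 454 ± 11.5 and 435 ± 27.0 CPM (log2 fold change -0.06, adjusted p = 0.611). All CPM levels of genes were scaled with TMM factors, which correct for differences in library composition. Fold changes are log2 values of Srebp2cKO over Srebp2WT, and adjusted p-values come from the edgeR quasi-likelihood F test over all 11932 tested genes. A gene was said to change where its adjusted p was below 0.05.

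Cxcr3 and Gpr15 fell in Srebp2cKO Tregs, and no other receptor of the set passed the test in the fit with all libraries. Cxcr3, the receptor for the interferon-induced chemokines CXCL9, CXCL10 and CXCL11, dropped to 46.8% of its Srebp2WT mean. Gpr15, the receptor for the colon-homing peptide ligand GPR15LG, dropped to 35.6%. Of the 8 receptors that could be tested, 2 were lower and 0 higher, beside 4.24% of all tested genes lower and 2.37% higher (6.61% in either direction). The median log2 fold change of the 8 was -0.22, and over all tested genes it was -0.00015. In bulk RNA, fewer cells that carry a transcript and less of it per cell cannot be told apart.

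Cxcr3 was at 68.0, 53.6 and 45.9 CPM in Srebp2WT replicates 1, 3 and 5 and at 26.0, 21.1 and 31.2 CPM in Srebp2cKO replicates 6, 7 and 8. Every Srebp2cKO library lay below every Srebp2WT library, with Srebp2WT replicate 1 the highest of all. The means were 55.8 ± 11.2 and 26.1 ± 5.08 CPM (SD, n = 3), with a log2 fold change of -1.10 (SE 0.17, 95% interval -1.46 to -0.73, adjusted p = 0.00601), which is 2.14-fold lower. The counts behind these levels ran from 678 to 1086 in Srebp2WT and from 327 to 536 in Srebp2cKO. With any 1 library left out, the log2 fold change stayed between -1.25 and -0.93 and passed the test in 6 of 6 fits (adjusted p 0.00445 to 0.0256).

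Gpr15 was less abundant, at 16.7, 11.0 and 11.7 CPM in the Srebp2WT libraries and 5.14, 4.00 and 4.90 CPM in the Srebp2cKO libraries. The groups again did not overlap, and Srebp2WT replicate 1 was again the highest library. The means were 13.1 ± 3.08 and 4.68 ± 0.601 CPM (SD, n = 3), with a log2 fold change of -1.49 (SE 0.20, 95% interval -1.93 to -1.05, adjusted p = 0.00302), which is 2.81-fold lower. Counts were 171 to 266 in Srebp2WT and 62 to 84 in Srebp2cKO. Leaving out 1 library at a time gave -1.60 to -1.28 (adjusted p 0.00523 to 0.0102). Groups that did not overlap, with Srebp2cKO lower, were seen in 2 of the 8 receptors and in 15.5% of all tested genes. With Srebp2cKO higher they were seen in 0 receptors and 16.0% of genes (31.5% in either direction).

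**Figure D1:**
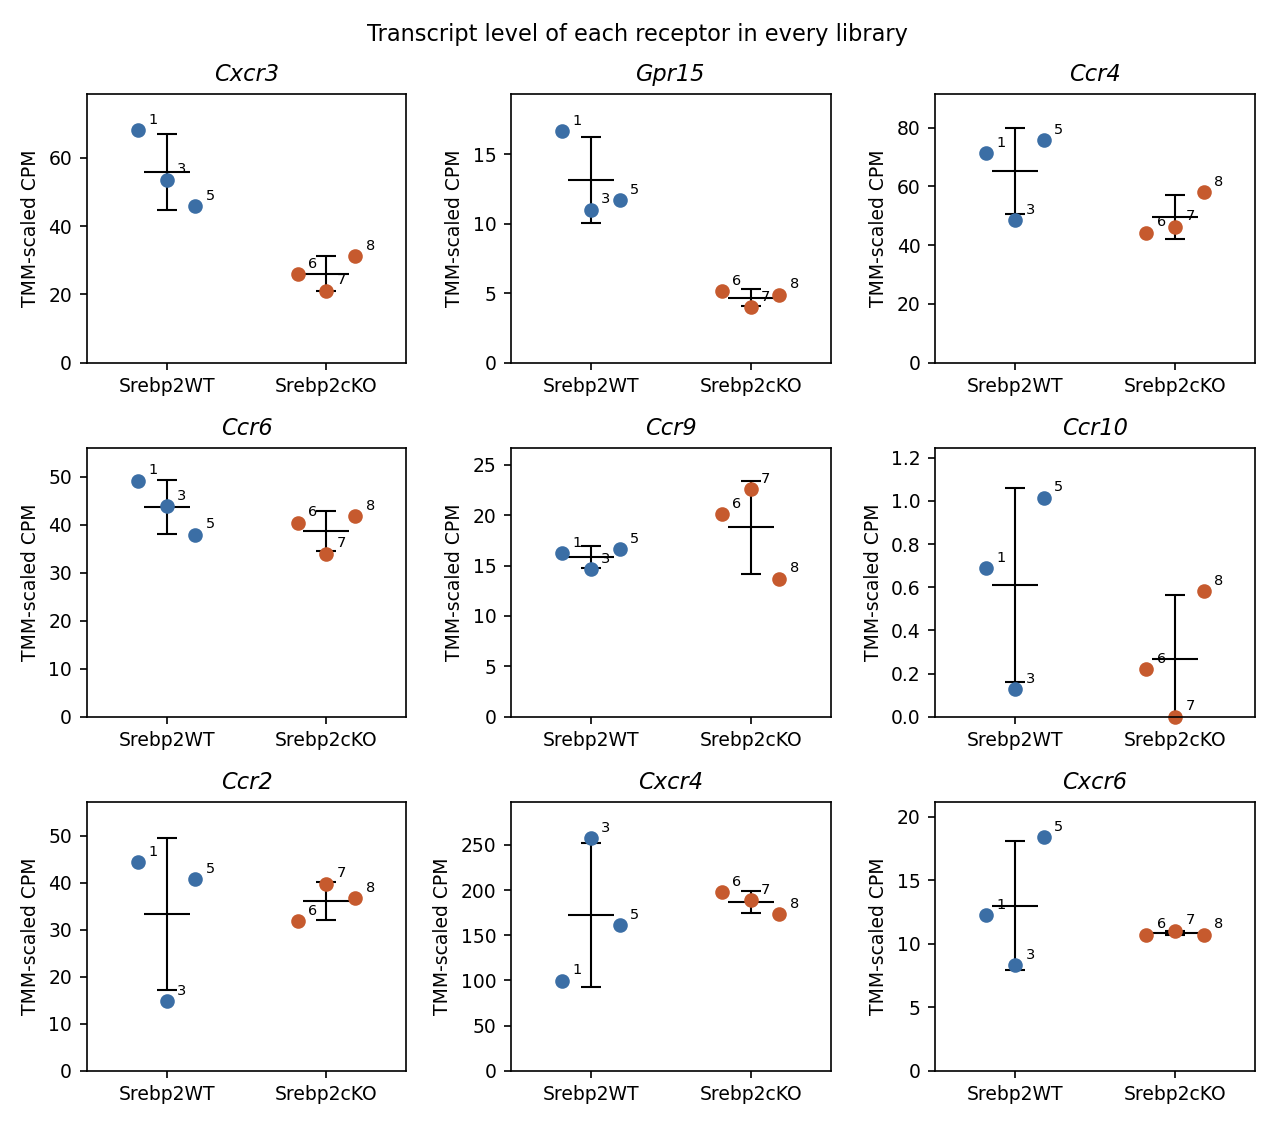
TMM-scaled CPM (vertical axes, each from 0) of the 9 receptor genes in the 3 Srebp2WT and 3 Srebp2cKO libraries. Points are libraries with their replicate numbers, and bars are the mean and SD. Cxcr3 and Gpr15 have all Srebp2cKO points below all Srebp2WT points, whereas Cxcr4, Ccr2 and Cxcr6 have Srebp2WT points spread over a wider range than the Srebp2cKO points.

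The Cxcr3 gene (ENSMUSG00000050232) lies on the minus strand of chrX:101731535-101734269 (GRCm38), with 2 exons and 1731 exonic bases. Gpr15 (ENSMUSG00000047293) is a single-exon gene on the minus strand of chr16:58717433-58719070 with 1638 exonic bases. Its 3′ end shares 204 exonic bases with Cpox, a heme synthesis gene on the opposite strand. Since no source used here gives the strand setting of the counting, reads in this stretch cannot be assigned with certainty. Of the 50-base stretches of the Gpr15 transcript, 9.75% also occur in transcripts of other genes on either strand. The Gpr15 count is uncertain in that part. Cpox was at 36.5 ± 1.19 and 36.7 ± 4.96 CPM (log2 fold change 0.01, adjusted p = 0.959).

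The promoters of both genes that fell hold 2 copies of the letters ACCACA, the core recognized by RUNX factors, which shape T cell identity and partner with Foxp3. The search covered both strands of the 300 bases from 250 before the RefSeq start site on in RefSeq promoters (GRCm38.p6), which held an entry for 8 of the 9 receptors (9 promoters in all). The motif was present in 4 member promoters and in 16.8% of all 32851 promoters. Both figures take in promoters with a single copy, and the share of promoters with 2 copies was not counted. The 30-base windows around each match are shown because they are the sequence feature that the Cxcr3 and Gpr15 promoters share, and those of Cxcr6 and Ccr6, which did not pass the test, are set beside them. Capitals mark the motif, which in Ccr6 is on the other strand and therefore reads in reverse complement. The windows are, in order, chr16:58718937-58718966 (minus strand), chrX:101734240-101734269 and chrX:101734119-101734148 (minus strand), chr9:123806455-123806484 (plus strand) and chr17:8236061-8236090 (plus strand).
Gpr15: agaaagaaaACCACAACCACAgccaatacc
Cxcr3, first copy: tgtattcacctgACCACAggcgtggcagaa
Cxcr3, second copy: tgcaagttcccaACCACAagtgccaaaggc
Cxcr6: acggaaacacagACCACAtcacagagaacc
Ccr6: aaacagaacactTGTGGTaaggtatctacc

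In Gpr15 the copies are adjacent, at 85 and 79 bases before the RefSeq start site, whereas in Cxcr3 one lies 110 bases before the RefSeq start and the other at base 12 from it on. The RefSeq start sites lie inside the GENCODE genes given above, by 198 bases in Gpr15 and 122 bases in Cxcr3, so the Gpr15 window and both Cxcr3 windows are within the annotated GENCODE transcripts. A match is a description of letters and was not tested as a binding site. The AHR core GCGTG, bound by the aryl hydrocarbon receptor, occurred in the promoters of Cxcr3 and Cxcr4 and in 32.4% of all promoters, and in Cxcr3 it lies in the window of the first copy shown above. The GATA motif AGATAA occurred in promoters of Ccr2 and Ccr6 and in 11.2% of all. The sterol regulatory core TCACCCCAC (0.551% of all promoters), the E-box CACGTG (7.15%) and the T-box half-site GGTGTGA (3.98%) were found in 0 of the 9 member promoters.

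RNA for the factors that are known to act on these receptor genes was measured in the same libraries. Of 26 tested regulators, 4 fell and 2 rose, beside 6.61% of all genes called, with a median log2 fold change of -0.15. Ahr, which encodes a ligand-activated factor that promotes Gpr15 transcription, was at 66.2, 46.7 and 58.3 CPM in Srebp2WT and 33.7, 37.5 and 44.1 CPM in Srebp2cKO. Its groups did not overlap, and it fell by 0.57 on the log2 scale (SE 0.14, adjusted p = 0.0380). Tbx21, which encodes T-bet, was at 13.7, 8.37 and 7.17 CPM against 4.04, 4.45 and 6.53 CPM. Its log2 fold change was -0.95 (SE 0.27, adjusted p = 0.0598), which missed the threshold. The Tbx21 groups did not overlap either, and 15.5% of all tested genes had such groups with Srebp2cKO lower.

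The other regulators that fell were Rora, which encodes an orphan nuclear receptor of tissue Tregs (-0.71, adjusted p = 0.0225), Batf, an AP-1 factor of effector Tregs (-0.64, 0.0257), and Prdm1, which encodes Blimp-1 (-0.47, 0.0194). Klf2, which maintains lymph node homing genes, rose by 0.46 (0.0203). Gata3, the factor of type 2 responses, was at -0.31 (0.0508), Runx1 at 0.02 (0.919) and Runx3 at -0.23 (0.184), all given here for their known roles although they did not pass. Each call named here was lost in at least 1 fit with a library left out: Klf2 without Srebp2WT replicate 1 or 3, Prdm1 without replicate 1 or 8, Rora without 1 or 7, Batf without 1, 3 or 7, and Ahr without 1, 5, 6 or 7. Their log2 fold changes kept their sign in all 6 such fits. With the GC trend removed Batf no longer passed (-0.47, adjusted p = 0.0726) and Klf2 moved to 0.75. DESeq2 called 9 of the 26 lower and 4 higher, beside 11.5% of all genes it tested.

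Among receptors for skin and mucosal surfaces, Ccr4, Ccr6 and Ccr9 did not pass the test. Ccr4, the receptor for CCL17 and CCL22 that brings Tregs to skin and to antigen-presenting cells, was at 71.4, 48.5 and 75.8 CPM in Srebp2WT and 44.3, 46.3 and 58.1 CPM in Srebp2cKO. The groups overlapped because Srebp2WT replicate 3 lay among the Srebp2cKO values. The log2 fold change was -0.39 (95% interval -0.75 to -0.04, unadjusted p = 0.0342, adjusted p = 0.141). Counting such unadjusted p-values under 0.05, 3 of the 8 receptors had one, beside 29.1% of all tested genes. With the trend of counts on GC content removed and Srebp2WT replicate 3 left out, a setting chosen after seeing the data, Ccr4 passed at -0.64 (adjusted p = 0.0296). It did not pass in the other 19 alternatives.

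Ccr6, the receptor for CCL20 of mucosal and Th17-rich sites, was at 49.2, 43.9 and 38.0 CPM against 40.5, 34.0 and 41.9 CPM. The values interleaved, and the log2 fold change was -0.17 (95% interval -0.43 to 0.08, adjusted p = 0.345). Ccr9, the receptor for CCL25 of thymus and small intestine, was at 16.2, 14.6 and 16.7 CPM against 20.1, 22.6 and 13.7 CPM. Srebp2cKO replicate 8 was the lowest library and the other Srebp2cKO libraries were the highest, giving 0.24 (95% interval -0.13 to 0.62, adjusted p = 0.364). Whether the response of Ccr9 differed from that of Gpr15, the other gut receptor, was not tested. The exons of Ccr9 share 1932 bases with a transcript on the opposite strand, so its count is uncertain.

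Ccr10, the receptor for CCL27 and CCL28 of skin and mucosal epithelium, was too low to test. It had 11, 2 and 15 counts in Srebp2WT and 3, 0 and 10 counts in Srebp2cKO. The summed counts were 28 (exact 95% Poisson interval 18.6 to 40.5) and 13 (6.92 to 22.2), and these intervals cover counting error only. Without the filter on low counts its log2 fold change was -1.11 (adjusted p = 0.442), so a difference was not detectable at this depth.

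Cxcr4, Ccr2 and Cxcr6 varied more among the Srebp2WT libraries than between the group means. Cxcr4, the receptor for CXCL12 that retains cells in bone marrow and lymphoid tissue, was at 99.6, 258 and 161 CPM in Srebp2WT and 197, 189 and 173 CPM in Srebp2cKO. Srebp2WT replicate 1 was the lowest library and replicate 3 the highest, a ratio of 2.59, while the Srebp2cKO libraries differed by a ratio of 1.14. The log2 fold change was 0.11 (95% interval -0.45 to 0.67, adjusted p = 0.802), and without Srebp2WT replicate 1 it was -0.17.

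Ccr2, the receptor for CCL2 that draws monocytes and effector Tregs into inflamed tissue, was at 44.4, 14.8 and 40.7 CPM against 31.9, 39.8 and 36.7 CPM. Srebp2WT replicate 3 stood below the other 5 libraries, and the highest to lowest ratio was 2.99 in Srebp2WT and 1.25 in Srebp2cKO. The log2 fold change of 0.12 (95% interval -0.55 to 0.79, adjusted p = 0.823) became -0.23 without replicate 3. Of the 50-base stretches of the Ccr2 transcripts, 1.91% also occur in transcripts of other genes, so the Ccr2 count is uncertain in that part. This share is smaller than the 9.75% of Gpr15.

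Cxcr6, the receptor for CXCL16 found on tissue-resident T cells, was at 12.3, 8.31 and 18.4 CPM in Srebp2WT and at 10.7, 11.0 and 10.7 CPM in Srebp2cKO. The Srebp2cKO libraries lay inside the range of the Srebp2WT libraries, and the log2 fold change was -0.26 (95% interval -0.78 to 0.26, adjusted p = 0.486). Without Srebp2WT replicate 5 it was 0.07. The intervals of Cxcr4, Ccr2 and Cxcr6 each cover changes in either direction, so no difference was detectable, and equality was not shown.

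**Figure D2:**
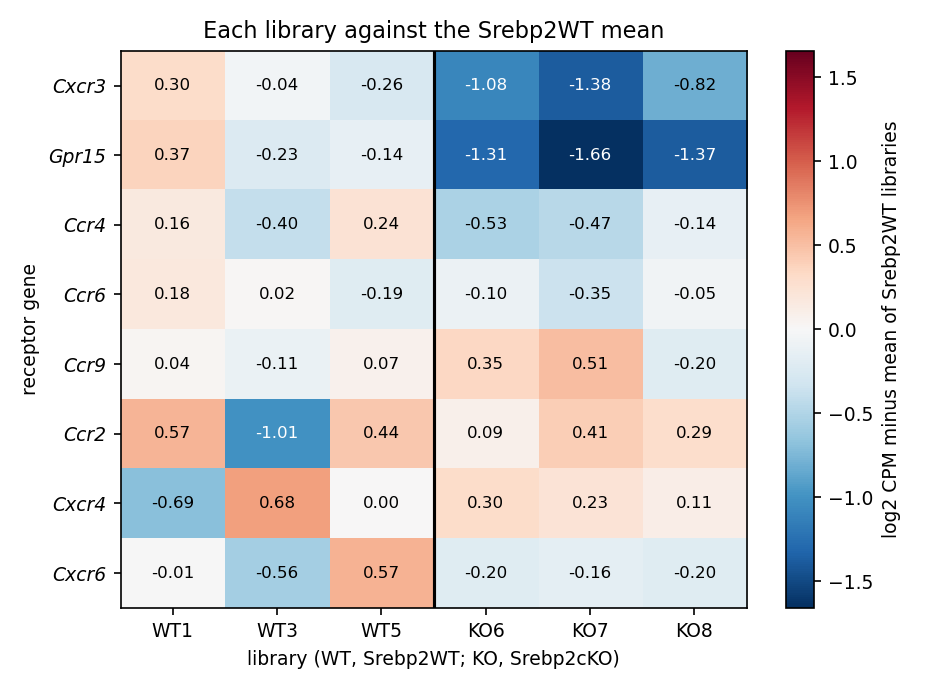
Log2 CPM of 8 receptors (rows) in each library (columns) minus the mean of the Srebp2WT libraries, with red for higher and blue for lower values. Cxcr3 and Gpr15 are blue in all 3 Srebp2cKO columns (-1.66 to -0.82), and the largest deviations among Srebp2WT columns are those of Ccr2 (-1.01) in replicate 3 and Cxcr4 in replicates 1 (-0.69) and 3 (0.68).

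Of these receptors, Ccr9, Cxcr6 and Ccr2 sit within 435 kb on chromosome 9, where a cluster of chemokine receptor genes lies. Ccr9 (chr9:123678439-123784330) and Cxcr6 (chr9:123806475-123811760) are 22.1 kb apart, and Ccr2 (chr9:124101950-124113557) follows 290.2 kb beyond Cxcr6. All 3 are on the plus strand, and none of the 3 passed the test. Ccr4 is on the same chromosome at chr9:114490316-114504916 on the minus strand, outside the cluster. Cxcr4 (chr1:128588199-128592293), Ccr6 (chr17:8236043-8257141) and Ccr10 (chr11:101172997-101175443) are elsewhere. Cxcr6 lies within the span of Fyco1 and Ccr10 within that of Cntnap1, both on the opposite strand, with 0 exonic bases shared.

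To compare receptors with each other, CPM was divided by exonic length in kilobases. This length counts every annotated exon of a gene, 10260 bases for Ccr9, 6760 for Ccr2 and 1638 to 3093 for the others. The order depends on it. Before the division, Ccr2 was at 33.3 CPM and Ccr9 at 15.8 CPM in Srebp2WT, above Gpr15 at 13.1 and Cxcr6 at 13.0 CPM. In Srebp2WT Tregs Cxcr4 was the most abundant at 95.6 ± 44.1 CPM per kb, followed by Cxcr3 at 32.3 ± 6.50, Ccr4 at 21.1 ± 4.74 and Ccr6 at 18.8 ± 2.43 CPM per kb. Gpr15 followed at 8.02 ± 1.88, Cxcr6 at 6.73 ± 2.64, Ccr2 at 4.93 ± 2.38, Ccr9 at 1.54 ± 0.104 and Ccr10 at 0.354 ± 0.260 CPM per kb (SD, n = 3 for each). The ranges over libraries of Ccr4 and Ccr6 overlapped, as did those of Gpr15 and Cxcr6 and those of Cxcr6 and Ccr2, so the order within each of these pairs is within the spread. On this scale Gpr15 was above Ccr2 in every Srebp2WT library. The other neighbours in the order did not overlap.

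In Srebp2cKO Tregs Cxcr3 stood at 15.1 ± 2.93 CPM per kb, within the range of Ccr4 (16.0 ± 2.42) and Ccr6 (16.7 ± 1.81), and had rank 4 in the order rather than rank 2. Gpr15 stood at 2.86 ± 0.367 CPM per kb, below Cxcr6 (5.61 ± 0.0918) and Ccr2 (5.35 ± 0.592) in every library, and had rank 7 rather than rank 5. Cxcr4 remained the most abundant at 103 ± 6.72 CPM per kb. Ccr9 and Ccr10 were again the lowest on this scale, at 1.83 ± 0.447 and 0.155 ± 0.171 CPM per kb.

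Across the 6 libraries, the genes whose log2 CPM followed Cxcr3 most closely among 10190 genes were Psen2 (Pearson r = 0.998), Caskin2 (0.998), Mif4gd (0.997), Cd22 (0.997) and Stx11 (0.996). For Gpr15 they were Mid1ip1 (0.997), St14 (0.996), Tep1 (0.996), Lamc1 (0.994) and Dgat2 (0.993). These correlations are descriptions over 6 libraries that share the genotype difference and depth. Cxcr3 and Gpr15 followed each other with r = 0.97, at rank 136 of the genes like Cxcr3 and rank 71 of those like Gpr15. Of the 10 genes named, 8 fell, from -1.52 for Cd22 to -0.34 for Tep1, while Psen2 (-0.33, adjusted p = 0.0508) and Dgat2 (-0.81, adjusted p = 0.0611) did not pass. Cd22, Stx11, St14 and Lamc1 passed in 6 of 6 fits with a library left out, whereas Caskin2, Mif4gd, Mid1ip1 and Tep1 lost their call without Srebp2WT replicate 1 and without replicate 3, Caskin2, Mif4gd and Tep1 also without replicate 7 and Tep1 without replicate 8.

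Other chemoattractant receptors served as a comparison, with 14 of 26 tested. Of these 2 fell and 1 rose, beside 6.61% of all tested genes called, and their median log2 fold change was -0.09. DESeq2 called 4 lower and 4 higher, beside 11.5% of all genes it tested. Ccr8, a receptor of tissue and tumour Tregs, was at 31.8, 28.2 and 23.5 CPM in Srebp2WT and 16.7, 12.1 and 19.0 CPM in Srebp2cKO (log2 fold change -0.80, SE 0.17, adjusted p = 0.0242). Ccrl2, an atypical receptor that presents chemerin, fell by 0.96 (SE 0.21, adjusted p = 0.0293). Ccr7, the receptor for entry into lymph nodes, rose by 0.45 (SE 0.10, adjusted p = 0.0281), from 148, 168 and 180 CPM to 249, 204 and 222 CPM. The groups of these 3 genes did not overlap, which held for 31.5% of all tested genes in either direction. Each call was lost without Srebp2WT replicate 1 and without replicate 3. That of Ccr7 was also lost without replicate 8 and that of Ccrl2 also without replicate 7.

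**Figure D3:**
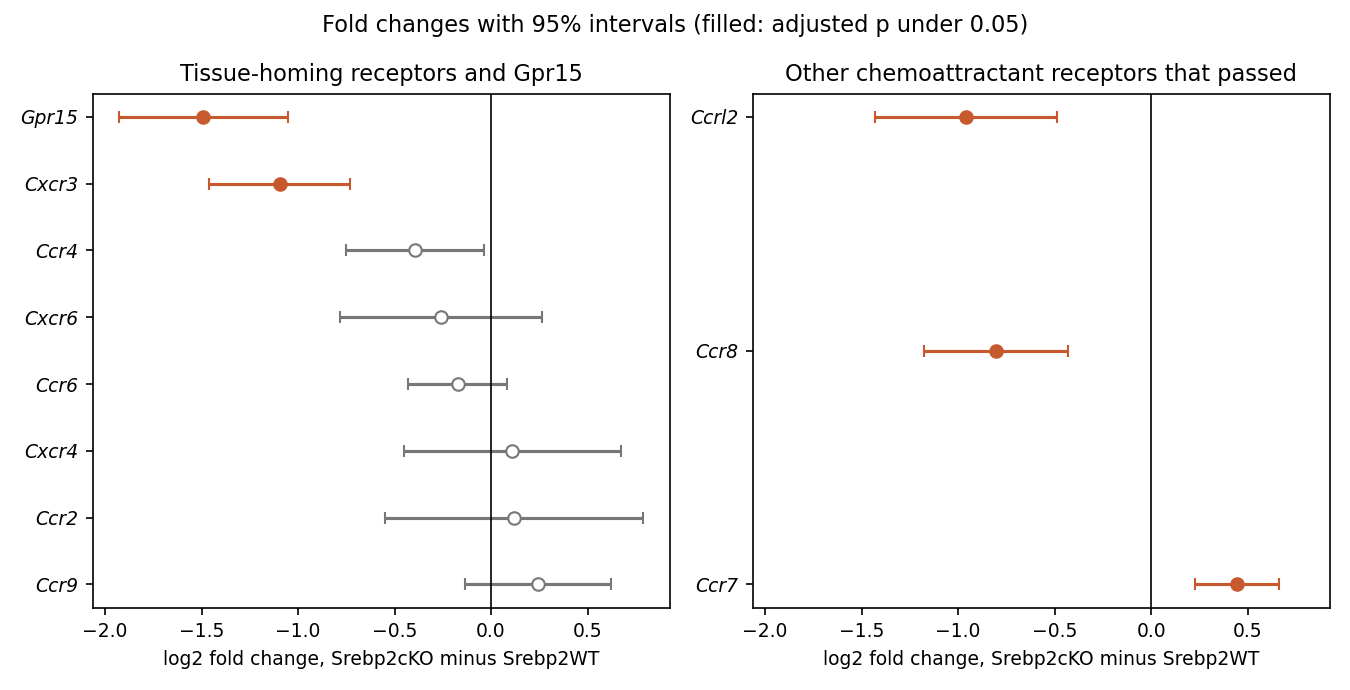
Log2 fold changes (horizontal axes, Srebp2cKO minus Srebp2WT) with 95% intervals for the 8 tested receptors of the set (left) and for the 3 other chemoattractant receptors that passed (right). Filled orange points had an adjusted p below 0.05: Gpr15 (-1.49) and Cxcr3 (-1.10) on the left, Ccrl2 (-0.96), Ccr8 (-0.80) and Ccr7 (0.45) on the right.

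Of the 15 chemokines and other ligands listed for these receptors, 5 had enough counts to be tested and 0 passed in edgeR. An unadjusted p under 0.05 was seen in 2 of the 5, beside 29.1% of all tested genes. DESeq2 called 2 lower, beside 11.5% of all genes it tested, and limma-voom called 0. The pair with the smallest p were Cxcl10, a CXCR3 ligand (9.77, 5.54 and 7.51 CPM against 2.64, 2.13 and 5.48 CPM, log2 fold change -1.14, adjusted p = 0.0682), and Mif, a cytokine that binds CXCR4 (-0.47, adjusted p = 0.0848). The CCR2 ligands Ccl2, Ccl7 and Ccl12 and the chemokine ligand of CXCR4, Cxcl12, had 0 counts in every library.

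Genes that carry or end the receptor signal showed 1 rise and 2 falls among 31 tested, with a median log2 fold change of 0.02. That is 9.68% of the list, near the 6.61% called of all tested genes. DESeq2 called 3 higher and 4 lower, beside 11.5% of all genes it tested. Rgs proteins speed up the shutdown of G protein signals. Rgs1 rose by 0.65 (SE 0.14, adjusted p = 0.0249), Rgs10 fell by 0.44 (SE 0.07, adjusted p = 0.00956) and Rgs16 fell by 0.86 (SE 0.21, adjusted p = 0.0370). The call of Rgs10 was lost without Srebp2WT replicate 3, that of Rgs1 without replicate 1, 3, 7 or 8, and that of Rgs16 without replicate 1, 3, 6 or 7. The G protein subunits, receptor kinases and arrestins that were tested were among the 28 genes that did not pass.

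Adhesion molecules complete homing by holding cells to vessel walls. Of 9 tested, 2 fell and 1 rose, beside 6.61% of all tested genes called. Itgb1, the β1 integrin chain, fell by 0.65 (SE 0.13, adjusted p = 0.0210) and Itgal, the αL chain of LFA-1, fell by 0.43 (SE 0.09, adjusted p = 0.0210). The chains of the gut integrins, named for their role, did not pass: Itgae at -0.57 (adjusted p = 0.0645), Itgb7 at -0.23 (0.186) and Itga4 at 0.11 (0.396). Both calls were lost without Srebp2WT replicate 1, that of Itgal also without replicate 3 and that of Itgb1 without replicate 7.

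The fall of Cxcr3 and Gpr15 stood beside shifts in genes of Treg activation. Over all tested genes 4.24% fell and 2.37% rose. Of 16 effector Treg genes 8 fell and 0 rose, and their median log2 fold change was -0.42. Klrg1, an inhibitory receptor of terminally differentiated Tregs, fell by 2.93 (adjusted p = 0.00245) and Tigit, an inhibitory receptor, by 1.66 (adjusted p = 0.00442). Of 12 resting Treg genes 5 rose and 0 fell (median 0.42), among them Bcl2, a survival gene (0.52, adjusted p = 0.0180), and Foxp1 (0.38, adjusted p = 0.0202), with Klf2 and Ccr7 given above. Il2ra was the single gene of 9 Treg identity genes that passed, at 0.41 (adjusted p = 0.0101). Klrg1, Tigit, Pdcd1 and Ebi3 passed in 6 of 6 fits with a library left out. Il1rl1 lost its call without replicate 1, 5 or 7, Tnfrsf9 without 1, 3 or 8, and Tnfrsf18 and Lag3 without 1, 3, 7 or 8 and with the GC trend removed (adjusted p = 0.0741 and 0.0901). Bcl2 and Foxp1 lost their call without Srebp2WT replicate 1 or 3, Foxp1 also without replicate 8, and Il2ra without replicate 3. The part of such a shift in the level of either receptor was not tested.

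Some markers of other cells that these tissues hold moved with genotype too, while others of the same lists did not pass. The summed level of 10 B cell markers was 57.5 to 81.0 CPM in Srebp2WT and 26.8 to 36.6 CPM in Srebp2cKO, highest in Srebp2WT replicate 1. Of the 4 tested genes of this list 3 fell, Cd74, Cd22 and Cd79b, beside 4.24% of all tested genes lower. Cd74 and Cd22 passed in 6 of 6 fits with a library left out. The call of Cd79b (-0.68, adjusted p = 0.0492) held in 1 of 6, the one without Srebp2cKO replicate 6. It was also lost with the GC trend removed (adjusted p = 0.0749). The defining B cell genes named here were near 0, with 0 to 2 counts per library for Ms4a1 and 0 to 1 for Pax5, and Cd74 was the most abundant of the list. The sum of 11 myeloid markers was 54.8 to 89.9 and 38.4 to 44.3 CPM, led by Cybb, with S100a8 and S100a9 at 0 in every library, Lyz2 at 1 to 5 counts and Csf1r at 0 to 3. For 6 natural killer cell markers it was 4.52 to 5.72 and 3.88 to 7.55 CPM, with Ncr1, Klre1 and Klra8 at 0. Of the tested genes of these lists Cybb fell (-0.87, adjusted p = 0.0216), a call lost without Srebp2cKO replicate 7. Klrb1c of the natural killer list fell from 2.63, 1.55 and 1.83 CPM to 0.661, 0.839 and 0.816 CPM (-1.36, adjusted p = 0.0399). That call held in 1 of 6 fits with a library left out, the one without Srebp2WT replicate 5. The remaining tested genes of the B cell, myeloid and natural killer lists had higher means in Srebp2cKO and did not pass. They were Cd79a (0.56, adjusted p = 0.308), Cd68 (0.35, 0.270), Itgam (1.07, 0.108) and Eomes (0.66, 0.170). Without Srebp2WT replicate 1, where the B cell and myeloid sums were highest, Cxcr3 had a log2 fold change of -0.93 and Gpr15 one of -1.28. That fit keeps the marker difference and so cannot show the part of the markers. In Srebp2WT replicates 3 and 5 the B cell sums (57.5 and 57.9 CPM) were still above every Srebp2cKO library. The same held for their myeloid sums (57.5 and 54.8 CPM). The part of the markers in the fall of Cxcr3 and Gpr15 was not tested. Markers of conventional effector T cells, which also carry Cxcr3, summed to 71.5 to 76.4 and 61.2 to 86.7 CPM. Of 4 tested, 0 passed in edgeR, DESeq2 and limma-voom. In edgeR 0 had an unadjusted p under 0.05, beside 29.1% of all tested genes.

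**Figure D4:**
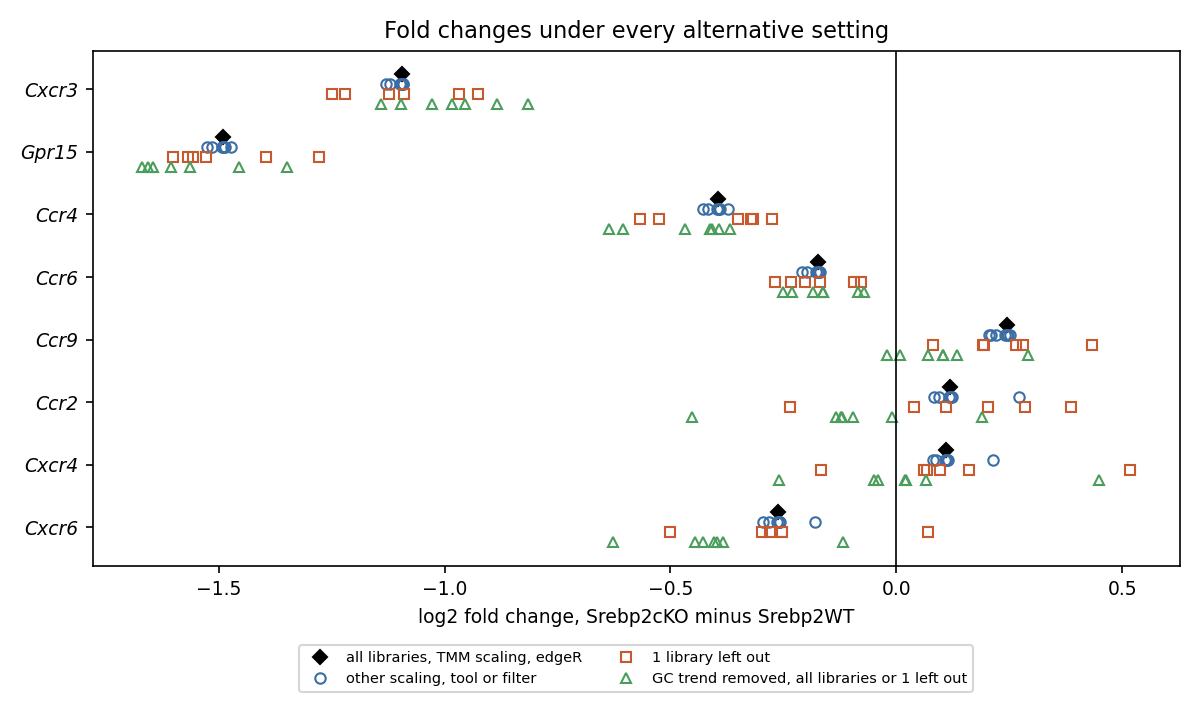
Log2 fold changes (horizontal axis) of the 8 tested receptors under each alternative setting. Diamonds are the reported values, circles other scalings, tools and filters, squares fits with 1 library left out and triangles fits with the GC trend removed. Cxcr3 (-1.25 to -0.82) and Gpr15 (-1.67 to -1.28) stay left of 0, and points of Ccr9, Ccr2, Cxcr4 and Cxcr6 fall on both sides.

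The 2 calls among the 8 receptors were set beside the share of all genes that each alternative called. That share was 6.55% with RLE scaling, 6.42% with upper-quartile scaling, 6.32% with total counts, 11.5% with DESeq2, 6.55% with limma-voom, 7.39% with no filter and 7.04% where 1 CPM or more in 3 libraries was asked for. Leaving out Srebp2WT replicate 1, 3 or 5 gave 1.39%, 1.53% and 8.97%, and leaving out Srebp2cKO replicate 6, 7 or 8 gave 12.3%, 2.46% and 3.63%. With the GC trend removed the share was 5.73%, and with the same libraries left out in turn it was 2.28%, 2.14%, 6.47%, 3.36%, 2.54% and 4.49%. In each of these settings Cxcr3 and Gpr15 were called, and Ccr4 joined them in the fit that called 2.14% of genes.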

How the data were processed

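Per the labels' protocols, a Qiagen RNeasy kit gave total RNA and a KAPA HyperPrep kit with RiboErase, which removes ribosomal RNA, gave the libraries. The authors deposited raw counts per gene symbol, whole numbers with a column for each library. HISAT2 2.2.1, Cell Ranger and mm10 appear in the submitters' processing notes without their roles. The sources used here do not give the counting tool, annotation or strand setting. Reads of overlapping genes could therefore be split wrongly in both genotypes.

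The 9 receptors and all gene lists were chosen with earlier results of these data known, and the immediate early list was added later. Of 24421 genes, 8113 had 0 counts throughout, and filterByExpr of edgeR 4.0.16 (R 4.3.3) kept 11932. The quasi-likelihood F test was run on TMM-scaled counts of all 6 libraries without a covariate, with Benjamini-Hochberg adjustment over all tested genes and a false discovery rate of 0.05. The script was tested on simulated data. Marker sums are CPM of total counts. Alternatives were other scalings, DESeq2 1.42.0, limma-voom (limma 3.58.1), other filters, removal of a loess trend on GC (span 0.3) and leaving out each library, the last 2 together as an addition after the data were seen. Positions, lengths and GC came from GENCODE M21 (GRCm38, 23376 genes by symbol), and promoters from RefSeq (GRCm38.p6).

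All 9 receptors were named. Of each other list, members that passed were named (up to 6 by p, or the 2 of smallest p where none passed), and for likeness the 5 highest correlations among genes with a mean log2 CPM of at least 1, leaving out predicted models. Tbx21, Gata3, Runx1, Runx3, Itgae, Itgb7, Itga4, Cpox and Gzmb are outside that rule and were chosen after their values were seen. The results of some genes that the rule names are left out here.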

Additional observations from a re-analysis of the deposited data

How the results depend on the processing

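Cxcr3 and Gpr15 kept their direction and their call in 20 of 20 alternatives, at -1.25 to -0.82 and -1.67 to -1.28 on the log2 scale. The count of receptors that passed was 2 in all settings except with the GC trend removed and Srebp2WT replicate 3 left out, where Ccr4 made it 3. The number of genes changed was 789, and it became 1374 with DESeq2, 1205 without a filter and 1893 at a false discovery rate of 0.1. It ran from 167 (without Srebp2WT replicate 1) to 1487 (without Srebp2cKO replicate 6) with 1 library left out, and with the GC trend removed as well it was 275, 258 and 781 without Srebp2WT replicate 1, 3 or 5 and 406, 307 and 543 without Srebp2cKO replicate 6, 7 or 8. The split was 283 higher and 506 lower, and 184 and 570 when scaled by total counts. Directions of receptors that did not pass were less stable, and with 1 library left out Cxcr4 ran from -0.17 to 0.52, Cxcr6 from -0.50 to 0.069 and Ccr2 from -0.23 to 0.39. Cxcr4 turned to -0.17 without Srebp2WT replicate 1 and, with the GC trend removed, to -0.26 without replicate 1, -0.050 without 5 and -0.041 without 6. Cxcr6 turned to 0.069 without Srebp2WT replicate 5. Ccr2 turned to -0.12 with the GC trend removed and -0.23 without Srebp2WT replicate 3, and with both changes to -0.45. With the GC trend removed it was also -0.0091 without replicate 5, -0.10 without 6, -0.12 without 7 and -0.13 without 8. Ccr9 turned to -0.021 with the GC trend removed and replicate 7 left out. The cause of these changes was not tested. No paired analysis was possible because the genotypes share no replicate number. DESeq2 gave no adjusted p for Ccr10, whose counts limit it.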

Other observations

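Of 16 effector Treg genes, 9 had their lowest Srebp2WT level in replicate 3, 7 in replicate 5 and 0 in replicate 1. Klrg1, Il1rl1 and Gzmb are given as examples of the 9, chosen after their values were seen, and Tigit, Pdcd1 and Lag3 are among the 7. Klrg1 was at 31.5, 13.7 and 28.6 CPM in Srebp2WT replicates 1, 3 and 5 and at 2.13, 2.13 and 5.19 CPM in Srebp2cKO. Il1rl1, which encodes the IL-33 receptor of tissue Tregs, was at 56.1, 29.7 and 58.5 CPM against 13.6, 8.58 and 26.2 CPM. Gzmb, the granzyme B gene, was at 5.64, 1.35 and 5.08 CPM against 3.53, 3.94 and 4.02 CPM. Klrg1 and Il1rl1 in replicate 3 lay above all Srebp2cKO libraries, whereas Ccr2, Cxcr6 and Gzmb in replicate 3 lay below all of them.

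The immediate early genes, which respond within minutes to handling and stimulation, summed to 878, 891 and 956 CPM in Srebp2WT and 687, 673 and 1319 CPM in Srebp2cKO, so Srebp2cKO replicate 8 was the highest and the other Srebp2cKO libraries the lowest. Of 11 tested, 0 passed in edgeR and limma-voom and 1 was lower in DESeq2, which called 11.5% of all genes it tested. In edgeR 2 had an unadjusted p under 0.05, beside 29.1% of all tested genes. These 2 went in opposite directions, Jund at -0.37 and Fos at 1.73. Fos was at 118 CPM in Srebp2cKO replicate 8, against 12.3 and 18.8 CPM in replicates 6 and 7. Proliferation genes showed 1 fall (Tyms, thymidylate synthase, -0.60, adjusted p = 0.0332) among 11 tested, beside 6.61% of all tested genes called. That call held in 1 of 6 fits with a library left out, the one without Srebp2cKO replicate 6. Stromal markers summed to 168 to 180 CPM in Srebp2WT and 216 to 230 CPM in Srebp2cKO, and CD8 T cell markers to 7.01 to 7.59 and 8.70 to 10.3 CPM. Nearly all of the stromal sum was Pecam1, at 171 ± 4.18 and 224 ± 9.30 CPM (log2 fold change 0.39, adjusted p = 0.0139). Pdgfra and Pdpn had 0 counts in every library and Col3a1 and Cdh5 had 0 to 1. Col1a1 was at -0.75 (adjusted p = 0.234), so a rise of stromal markers as a set was not shown.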
